A study of Ovis aries with 7 samples.

Results

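Polycomb repressive complex 2 (PRC2) is described here through the messenger RNA of 10 genes, EZH1, EZH2, EED, SUZ12, RBBP4, RBBP7, JARID2, AEBP2, MTF2 and PHF19, in 8-cell embryos of the sheep (Ovis aries). The genes were chosen by name as core and accessory subunits, and all 10 were among the 31304 rows of the deposited table, of which 16516 carry a gene symbol. By the labels, 4 libraries hold cloned embryos from somatic cell nuclear transfer (SCNT) and 3 libraries hold embryos from in vitro fertilization (IVF). All values below are from the 3 IVF libraries. Another 4 columns of values could not be matched to any sample by name, so the SCNT libraries were not analysed here and SCNT is not compared with IVF. The sources used here give no genotype, breed or donor, nor how many embryos entered a library, which may be a pool.

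PRC2 adds methyl groups to lysine at H3K27 on histone H3, a mark of genes held silent. EZH2 or its paralog EZH1 carries the catalytic SET domain, EED and SUZ12 are needed for its activity, and RBBP4 or RBBP7 binds histones. Accessory subunits define alternative forms of the complex: MTF2, PHF19 or PHF1 in the form named PRC2.1, and JARID2 with AEBP2 in the form named PRC2.2. Early mouse embryos carry H3K27 methylation from the egg and remodel it during cleavage, while the embryo changes from stored maternal RNA to its own transcription.

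Levels are TPM, a transcript abundance scaled by gene length and by the library's total of 1000000, so that genes can be set beside each other. Depth is unknown because TPM does not retain it, and counting intervals are therefore not given. Genes at 1 TPM or more numbered 11090, 12246 and 10973 in IVF replicates 1, 2 and 3, and no non-zero value was identical between any pair of libraries. Markers of the early embryo were present, with 11 of 11 reaching 1 TPM in every library and a summed level of 1844 to 3081 TPM. Summed levels were 16.3 to 28.4 TPM for 15 fibroblast markers, 50.0 to 86.3 TPM for 14 cumulus and granulosa markers and 9.65 to 13.5 TPM for 10 sperm markers. Of these, 1 fibroblast marker (POSTN), 2 cumulus markers (FOXL2 and PTX3) and 4 sperm markers (PRM1, AKAP4, SMCP and SPEM1) were listed at 0 in all 3 libraries. The highest were VIM (7.90 ± 1.25 TPM), S100A4 (4.11 ± 1.59 TPM) and FN1 (3.03 ± 0.948 TPM) for fibroblasts, GATM (46.2 ± 19.3 TPM), HAS2 (10.01 ± 3.00 TPM) and HSD3B1 (4.32 ± 3.97 TPM) for cumulus cells, and ODF2 (5.82 ± 1.31 TPM) and TNP2 (2.08 ± 0.954 TPM) for sperm (SD, n = 3 each), with TNP1 next at 0, 2.82 and 1.89 TPM in replicates 1, 2 and 3. The protocols mention repeated trials but tie no library to one, so part of the spread between libraries may be technical.

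The 10 PRC2 genes spanned a wide range of levels in IVF embryos. RBBP7, RBBP4 and EED averaged 223 to 771 TPM, AEBP2, MTF2 and EZH2 averaged 40.5 to 57.8 TPM, and SUZ12, EZH1, JARID2 and PHF19 were the lowest 4. At a threshold of 1 TPM in all 3 libraries 9 of 10 genes were detected, against 49.0% of rows with a gene symbol, and PHF19 was below it in all 3 libraries. The median of the 10 mean levels was 42.8 TPM, beside 1.58 TPM over all rows with a symbol. The members added up to 1475, 1471 and 1397 TPM in replicates 1, 2 and 3, of which the histone-binding RBBP4 and RBBP7 took 73.9 ± 3.50% (SD, n = 3).

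**Figure D1:**
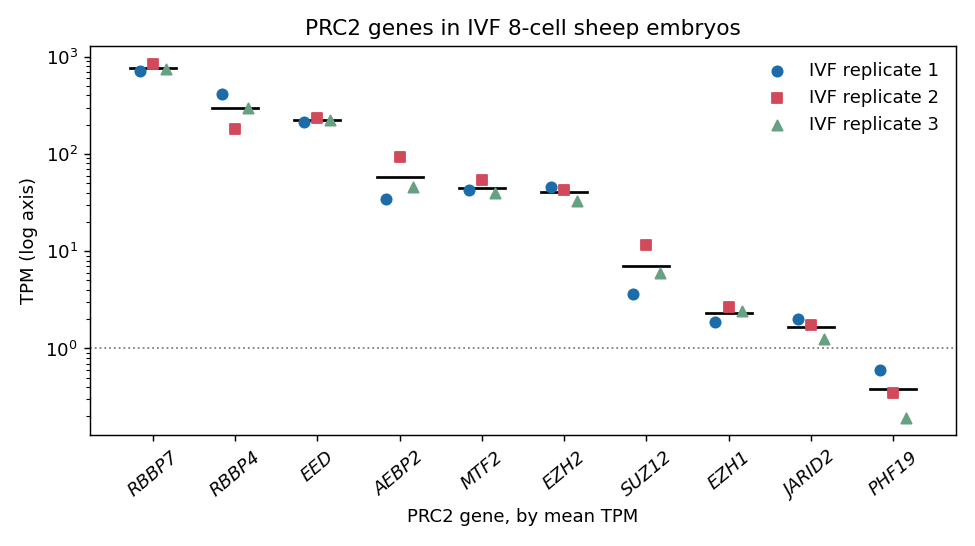
TPM (log axis) of the 10 PRC2 genes in IVF 8-cell embryos, ordered by mean; symbols are the 3 libraries, black bars the means, and the dotted line is 1 TPM. RBBP7 stands highest at 716 to 849 TPM and PHF19 lowest, below 1 TPM in each library.

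Of the catalytic subunits, EZH2 was at 46.0, 42.8 and 32.7 TPM in replicates 1, 2 and 3, a mean of 40.5 ± 6.95 TPM (SD, n = 3). EZH1, its paralog, which is known from mouse for weaker methyltransferase activity and for a role in non-dividing cells, was at 1.89, 2.67 and 2.43 TPM, a mean of 2.33 ± 0.399 TPM. The ranges did not overlap, and EZH2 made up 96.1, 94.1 and 93.1% of the EZH1 and EZH2 TPM together. EZH2 was 24.4, 16.03 and 13.4 times EZH1 in the 3 libraries. EZH2 ranked 1898 of 16516 symbols by mean TPM, whereas EZH1 ranked 7445. By Euclidean distance of log2(TPM + 1) over the 3 libraries, the symbols nearest to EZH2 were CCDC6 (47.7, 42.0 and 32.5 TPM), IDH3B (46.9, 44.2 and 33.4 TPM) and DCAF12 (45.1, 42.7 and 31.2 TPM). With 3 libraries such likeness reflects mainly a similar level.

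The scaffold subunits were far apart. EED, which binds the methyl mark and stimulates the enzyme, was at 213, 235 and 222 TPM, a mean of 223 ± 11.1 TPM (SD, n = 3). In TPM as deposited it had the lowest relative spread of the 10 genes (coefficient of variation 4.95%). SUZ12, which holds the core together and contacts the accessory subunits, was at 3.64, 11.6 and 5.95 TPM, a mean of 7.05 ± 4.07 TPM. Its relative spread as deposited was the highest (57.7%). Both ranks changed with the scaling of libraries, as given below. Every library had more EED than SUZ12, by 58.4, 20.3 and 37.4 times. SUZ12 also lay below EZH2 in every library, with EZH2 at 12.6, 3.70 and 5.49 times SUZ12 in the same order. On the log2(TPM + 1) scale EED exceeded SUZ12 by 4.92 ± 0.65 and EZH2 exceeded SUZ12 by 2.47 ± 0.79 (SD, n = 3 each). These are differences of RNA level, and protein was not measured.

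By mean TPM the histone-binding subunits were the most abundant PRC2 genes, although EED was above RBBP4 in replicate 2. They also serve other chromatin complexes, so their RNA is not a measure of PRC2 alone. RBBP7 was at 716, 849 and 749 TPM, a mean of 771 ± 69.4 TPM (SD, n = 3), and ranked 154 among symbols. RBBP4 was at 416, 181 and 299 TPM, a mean of 298 ± 118 TPM. RBBP7 was higher than RBBP4 in all 3 libraries, by 1.72, 4.70 and 2.51 times. As deposited, their sum varied little, at 1132, 1030 and 1047 TPM, although RBBP7 took 63.3, 82.5 and 71.5% of it. That small variation was not kept with another scaling of the libraries, given below. These are close paralogs, and the sources used here do not say how reads matching both were assigned, so their split is uncertain. RBBP4 shares 16.3% of its span with SYNC in the reference annotation, and SYNC stood at 0.723, 4.51 and 0.883 TPM.

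Among accessory subunits, AEBP2 was well above its partner JARID2, and MTF2 above its alternative PHF19. AEBP2, a zinc finger protein that stabilises PRC2.2, was at 34.4, 93.6 and 45.6 TPM, a mean of 57.8 ± 31.4 TPM (SD, n = 3). JARID2, which recruits PRC2.2 to chromatin, was at 2.003, 1.73 and 1.27 TPM, a mean of 1.66 ± 0.373 TPM, and its range did not overlap that of AEBP2. The row LOC106990325, whose whole span lies inside AEBP2 in the reference annotation, was at 0.467, 4.49 and 0.351 TPM and so was also highest in replicate 2. AEBP2 exceeded JARID2 by 4.35 ± 0.78 on the log2(TPM + 1) scale. MTF2, a Polycomb-like protein that binds unmethylated CpG-rich DNA, was at 42.1, 54.3 and 39.2 TPM, a mean of 45.2 ± 7.99 TPM. PHF19, another Polycomb-like protein, was at 0.595, 0.348 and 0.195 TPM. MTF2 exceeded PHF19 by 5.06 ± 0.30 on that scale, which understates ratios of genes below 1 TPM, and by 71 to 201 times in TPM.

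Accessory genes outside the 10 were below AEBP2, MTF2 and EZH2 in all 3 libraries. PHF1, the remaining Polycomb-like gene, was at 6.98, 9.20 and 6.48 TPM, so MTF2 made up 85.1 ± 0.353% (SD, n = 3) of the MTF2, PHF19 and PHF1 TPM together. LCOR, whose locus encodes a PRC2.1 subunit, averaged 9.26 ± 5.08 TPM, its paralog LCORL 6.91 ± 2.69 TPM and EPOP, another PRC2.1 subunit, 1.53 ± 0.160 TPM. EZHIP was not analysed here. The PRC2.2 genes AEBP2 and JARID2 together were at 36.4, 95.3 and 46.8 TPM, and the PRC2.1 genes MTF2, PHF19 and PHF1 at 49.7, 63.8 and 45.9 TPM. This PRC2.2 sum was lower than this PRC2.1 sum in replicate 1 and higher in replicates 2 and 3. LCOR, LCORL and EPOP were left out of the PRC2.1 sum. In replicate 3 they were at 7.08, 7.31 and 1.62 TPM, and adding any 1 of them would reverse the order there. The order was thus not the same in all libraries and depended on the subunits counted.

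**Figure D2:**
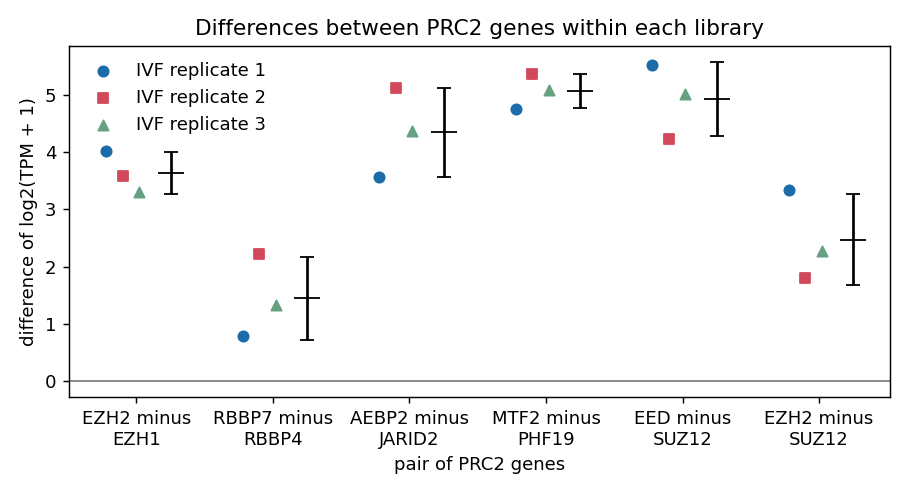
Difference of log2(TPM + 1) between 6 pairs of PRC2 genes within each of the 3 IVF libraries; symbols are libraries, and the bars beside them show the mean with SD (n = 3). All differences lie above 0, from 0.78 for RBBP7 minus RBBP4 in replicate 1 to 5.52 for EED minus SUZ12 in the same library.

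In the order of levels, 4 neighbouring pairs did not differ beyond their spread. RBBP4 minus EED was 0.34 ± 0.67, AEBP2 minus MTF2 0.23 ± 0.53, MTF2 minus EZH2 0.16 ± 0.25 and EZH1 minus JARID2 0.32 ± 0.34 on the log2(TPM + 1) scale (SD, n = 3 each), each with 2 of 3 libraries in the stated direction. The other neighbours kept their order in 3 of 3 libraries. RBBP7 exceeded RBBP4 by 1.44 ± 0.73, EED exceeded AEBP2 by 2.06 ± 0.66, SUZ12 exceeded EZH1 by 1.16 ± 0.56 and JARID2 exceeded PHF19 by 0.95 ± 0.06. In TPM, JARID2 was 3.37, 4.96 and 6.49 times PHF19 in replicates 1, 2 and 3. The small SD of that pair thus owes to the 1 added to low values. An exact two-sided sign-flip test over 3 libraries cannot give a p below 0.25, so no test is reported for any pair. TPM depends on the gene length the authors used, which the sources here do not state, and an unsuitable length would move a gene by the same factor in every library.

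The libraries differed in a few members. Of 7 PRC2 genes with a mean of 5 TPM or more, AEBP2 and SUZ12 were at least 2-fold above the mean of the other libraries in replicate 2, by 1.22 and 1.14 on the log2(TPM + 1) scale, where 12.8% of 6978 rows passed the same fold. SUZ12 also passed the fold downwards in replicate 1, at -1.01, as did 7.71% of rows. RBBP4 went the other way without passing it, at -0.96 in replicate 2, where 3.85% of rows were at least 2-fold lower, and at 0.84 in replicate 1, where 5.65% were at least 2-fold higher. EED and RBBP7 stayed within 0.214 of the other libraries in each case, and EZH2 and MTF2 within 0.43. In replicate 3 no member passed the fold, and 0.817% of rows were that much higher and 2.62% that much lower.

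**Figure D3:**
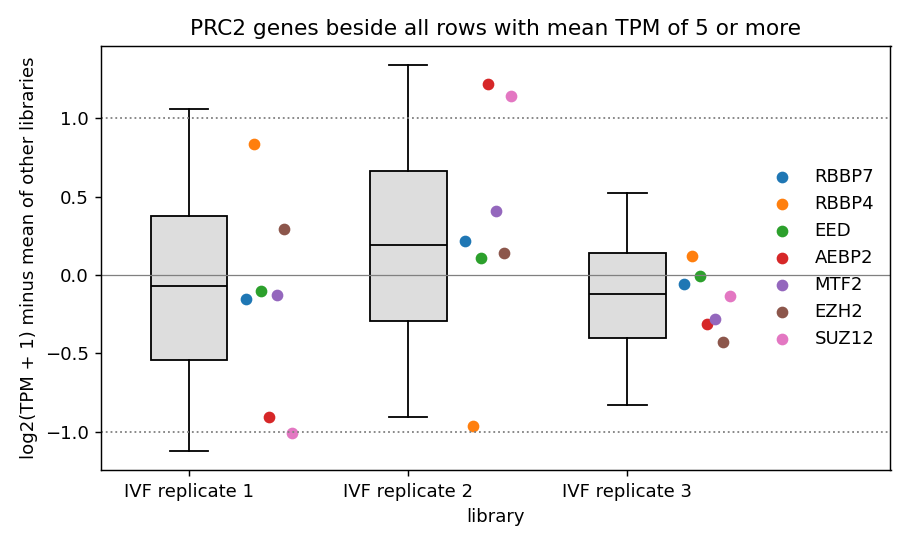
Log2(TPM + 1) in each IVF library minus the mean of the other libraries; grey boxes span the quartiles of 6978 rows with mean TPM of 5 or more (line at the median, whiskers at percentiles 5 and 95), coloured points are the 7 PRC2 genes at that level, and dotted lines mark a 2-fold difference. AEBP2 (1.22) and SUZ12 (1.14) lie high and RBBP4 (-0.96) lies low in replicate 2.

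These calls depended on how libraries were scaled. The median row lay 0.19 higher in replicate 2 as deposited and at -0.15 after scaling by the median of ratios. With that scaling AEBP2 and SUZ12 were 0.87 and 0.83 higher in that library and no longer passed the fold, whereas RBBP4, at -1.31, did, as did 10.1% of rows downwards. The directions of all 3 genes were kept. RBBP7 was then at 751, 715 and 823 in replicates 1, 2 and 3 and RBBP4 at 436, 152 and 328. Both were lowest in replicate 2, and so was their sum. EED was at 223, 198 and 245 and MTF2 at 44.2, 45.7 and 43.1, so EED no longer varied least. PHF19, at 0.625, 0.293 and 0.214, varied relatively more than SUZ12, at 3.82, 9.73 and 6.54. Ratios within a library do not depend on this scaling. In replicate 2 the ratio of EZH2 to SUZ12 was at its lowest (3.70) and that of RBBP7 to RBBP4 at its highest (4.70). As deposited, early embryo markers summed to 1925, 3081 and 1844 TPM in replicates 1, 2 and 3, and most were highest in replicate 2. These were ARGFX (376, 1022 and 444 TPM), TFAP2C (164, 692 and 299.8 TPM), ZSCAN4 (54.7, 216 and 69.3 TPM), SALL4, PRDM14, KLF17 and POU5F1. BTG4 (504, 272 and 329 TPM) and SOX2 (15.2, 11.2 and 12.3 TPM) were lowest in replicate 2, and NANOG was highest in replicate 3. KPNA7 (542, 390 and 314 TPM) was highest in replicate 1. Median-of-ratios scaling divides replicates 1, 2 and 3 by 0.953, 1.19 and 0.909. KLF17 (98.9, 117 and 105 TPM as deposited) and PRDM14 (77.9, 154 and 130 TPM) would then be highest in replicate 3. POU5F1 (19.1, 24.4 and 18.1 TPM) would be nearly level. The sum would stay highest in replicate 2, but most markers were highest there only as deposited. Sums of fibroblast markers were 16.3, 28.4 and 25.03 TPM, and of cumulus and granulosa markers 86.3, 67.2 and 50.0 TPM in the same order. GATM alone was at 68.5, 35.03 and 35.2 TPM, and it set replicate 1 as the highest cumulus sum. HAS2 and HSD3B1, the next highest of these markers by mean, were highest in replicate 2. The part of fibroblast and cumulus markers in the differences of AEBP2, SUZ12 and RBBP4 was not tested. A difference in the cells of a library cannot be told apart from a difference in RNA per cell.

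Demethylases of H3K27 and the CBX genes given here were lower than EZH2 in all 3 libraries. The demethylase KDM6A was at 4.06, 8.93 and 3.45 TPM and its paralog KDM6B at 1.25, 0.684 and 0.642 TPM, with KDM6A higher in 3 of 3 libraries. Of 4 CBX genes, whose proteins read the mark as part of Polycomb repressive complex 1, 2 had 1 TPM or more in all libraries, a share close to the 49.0% of all symbols. CBX6 and CBX8 averaged 6.50 ± 2.54 and 5.39 ± 2.38 TPM, and CBX7 and CBX2 averaged 0.750 ± 0.176 and 0.618 ± 0.178 TPM (SD, n = 3 each).

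Gene classes known from mouse and human embryonic stem cells as targets of PRC2 were low. Among 38 HOX genes, which pattern the body axis, 3 had 1 TPM or more in all libraries, 4 were listed at 0 in all, and the median of the mean levels was 0.132 TPM. HOXA7 was the highest at 9.23, 1.25 and 0.551 TPM, followed by HOXA4 at 2.97 ± 0.346 TPM and HOXC13 at 2.58 ± 1.09 TPM (SD, n = 3). Among 30 other developmental regulators, 7 were at 1 TPM or more throughout, with a median of 0.713 TPM, beside 49.0% of symbols detected and a median of 1.58 TPM. GATA6, an endoderm factor, was at 30.7, 68.3 and 39.7 TPM and stood apart from LHX1 (6.10 ± 3.68 TPM) and PAX6 (6.05 ± 1.33 TPM). H3K27 methylation was not measured, so these levels say nothing about the mark on these genes.

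**Figure D4:**
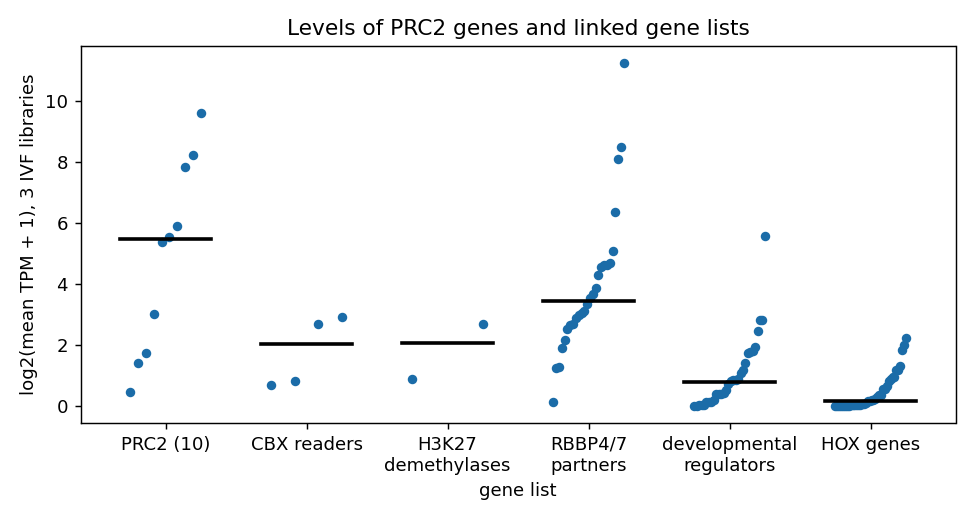
Level of each gene as log2 of its mean TPM over 3 IVF libraries plus 1, for the 10 PRC2 genes and 5 linked lists; points are genes and black lines list medians. PRC2 has a median of 42.8 TPM, beside 0.713 TPM for developmental regulators and 0.132 TPM for HOX genes.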

How the data were processed

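PolyA RNA of 8-cell sheep embryos was amplified for 20 PCR cycles and sequenced with Smart-seq2, per the labels' protocols. The authors deposited TPM values, and each column used sums to 1000000. Per the submitters' processing notes, reads were processed with fastp 0.23.4 (trimming) and HISAT2 2.2.1 (alignment). The sources used here do not give the sheep build, annotation or counting tool. TPM is relative to the library total, so abundant genes affect the values of all others.

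Columns were assigned to samples by name, which left 4 columns of per-sample values unused. The 10 members and 11 gene lists were chosen with earlier results of these data known. Named genes are all members, the highest 3 of each list, other accessory subunits, demethylases and readers, and the 3 symbols nearest to EZH2. SYNC, LOC106990325, CHAF1A, CHAF1B, BTG4, SOX2 and the markers at 0 were named after their values were seen. So were ZSCAN4, SALL4, PRDM14, KLF17, POU5F1 and NANOG. All 10 members matched symbols in the ARS-UI_Ramb_v3.0 gene table, whose build may differ, so no coordinates are given. The 3 listed genes that matched no row, EZHIP among them, and 1 other are not reported here. Differences between genes were taken within a library on log2(TPM + 1). A library was compared with the mean of the others over rows with a mean of 5 TPM or more. That step was run on simulated libraries of equal spread with some rows shifted. Such a run cannot show how it behaves on libraries that differ as these do. Alternatives were other pseudocounts, scalings, thresholds and the removal of each library in turn. Tools were numpy 2.4.6, pandas 2.3.3 and matplotlib 3.10.9 under Python 3.11.15.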

Additional observations from a re-analysis of the deposited data

How the results depend on the processing

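No paired analysis was possible because only IVF libraries were used. All alternatives but the removal of the pseudocount, which was chosen after seeing the data, were planned. AEBP2 minus MTF2, 0.23 on the log2 scale, lay between -0.037 and 0.49 with 1 library removed at a time, with the value of -0.037 found without replicate 2. Pseudocounts of 0.1, 5 and none gave 4.06, 2.62 and 4.12 for EZH2 minus EZH1, 6.64, 3.21 and 7.03 for MTF2 minus PHF19, 1.94, 0.31 and 2.25 for JARID2 minus PHF19, and 2.47, 0.80 and 2.61 for KDM6A minus KDM6B. A pseudocount of 5 gave 3.13 for AEBP2 minus JARID2. These shifts follow from the construction, since a larger pseudocount shrinks ratios of low genes. Members at least 2-fold lower in replicate 1 numbered 1 in the report and 0 both with a pseudocount of 5 and with median-of-ratios scaling. Those higher in replicate 2 numbered 2 in the report and 1 and 0 under the same settings, and those lower there numbered 0 and, with that scaling, 1 (RBBP4).

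Over all rows, a pseudocount of 5 gave 227 higher and 246 lower in replicate 1, 501 and 141 in replicate 2, and 23 and 54 in replicate 3. A mean of 1 TPM or more, which admits more rows, gave 661 and 1058, 1619 and 415, and 164 and 586 in the same order. Median-of-ratios scaling gave 344 lower in replicate 1, 329 higher and 702 lower in replicate 2, and 125 higher and 82 lower in replicate 3, and a pseudocount of 0.1 gave 93 higher in replicate 3. Symbols detected in all libraries, 8092, became 4939 at 5 TPM, as the threshold sets, while members detected became 6. Without mitochondrially encoded and ribosomal protein genes every member's TPM is higher, as the smaller total sets, for example 48.7 TPM for EZH2. Depth is unknown, so values of PHF19 and other low genes cannot be told from sampling loss.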

Other observations

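Partners of RBBP4 and RBBP7 in other chromatin complexes were expressed at uneven levels in IVF embryos, and 23 of 26 reached 1 TPM in every library, beside 49.0% of all rows with a symbol. Their median was 9.87 TPM, beside 1.58 TPM over those rows. SAP18, which is linked to the SIN3 deacetylase complex, was highest at 1822, 2562 and 2795 TPM in replicates 1, 2 and 3. HAT1, the histone acetyltransferase that pairs with RBBP7, was at 414, 286 and 363 TPM, and HDAC2 at 247, 316 and 247 TPM. The subunits of chromatin assembly factor 1, of which RBBP4 is also part, were at 34.6, 18.005 and 17.6 TPM for CHAF1A and 13.5, 1.95 and 5.17 TPM for CHAF1B. CHAF1A exceeded CHAF1B by 1.86 ± 0.73 on the log2(TPM + 1) scale (SD, n = 3). CHAF1B, like RBBP4, was highest in replicate 1 and lowest in replicate 2. HAT1 and some other partners in the list had the same order, so it was not particular to CHAF1B. This likeness over 3 libraries was noticed in the data and not tested.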
